A study of Mus musculus with 4 samples.

Results

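Nasal mucosal CD45+ cells from ribavirin-treated and vehicle-treated mice exposed to ovalbumin (OVA) were compared by single-cell RNA sequencing. The Ribavirin-OVA library was set against the Vehicle-OVA library over all cells holding at least 500 UMIs (unique molecular identifiers, each standing for 1 captured transcript) and 200 genes, with under 10% of UMIs from mitochondrially encoded genes. These filters kept 8817 of 10311 barcodes in the Ribavirin-OVA library and 17498 of 19143 in the Vehicle-OVA library, which are 26315 of the 72320 passing cells in the series. Cells were then divided by 6 gates, each asking for at least 2 UMIs summed over its genes: Csf3r, Cxcr2 and Il1r2 (neutrophil gate), C1qa, C1qb and C1qc (C1q gate), Cd3e, Cd3d and Cd3g (Cd3 gate), Ncr1, Klrb1c and Klre1 (NK gate), Cd79a and Ms4a1 (B cell gate), and Siglech (Siglech gate). Cells passing several gates were left out of the gates and kept in the sums over all cells.

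Ribavirin is a guanosine analog that inhibits inosine monophosphate dehydrogenase, the enzyme that commits purine synthesis to guanine nucleotides, and it is used as a broad antiviral drug. In OVA models of allergic rhinitis, sensitised mice receive OVA in the nose, and type 2 cytokines such as IL-4, IL-5 and IL-13 from T helper 2 cells and group 2 innate lymphoid cells recruit and activate other leukocytes. Neutrophils enter inflamed mucosa along gradients of CXCR2 ligands, live briefly, and are cleared by macrophages that engulf apoptotic cells.

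The series holds 4 libraries, 1 per group: Vehicle, Vehicle-OVA, Ribavirin and Ribavirin-OVA. All came from the nasal mucosa of C57BL/6 mice aged 8 weeks, and how many mice contributed to a library and how ribavirin was given are not stated in the sources used here. With 1 library per group a difference has no replicate check, so it compares the libraries and not the conditions, and the treatment cannot be told apart from the library. Every interval below is an exact 95% interval that covers counting error only. The Ribavirin and Vehicle libraries, which had no OVA, are given as the yardstick for how far a ribavirin and a vehicle library differed in the absence of the allergen.

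The passing cells had a median of 3432.5 UMIs in the Vehicle-OVA library and 5120 in the Ribavirin-OVA library, for 95850035 and 84654106 UMIs in all. Barcodes at or above the mitochondrial limit made up 8.58% of the first and 14.3% of the second, and the median mitochondrial share of passing cells was 1.32% and 3.43%. The libraries shared 43 cell barcodes, 0.246% of the Vehicle-OVA and 0.488% of the Ribavirin-OVA passing cells. Markers of each gate's cell type were found in that gate in both libraries, with no marker at 0. A doublet caller marked 1.60% of Vehicle-OVA cells and 0.567% of Ribavirin-OVA cells, against 7.66% and 4.12% expected from the cell numbers, and these cells were kept.

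The counting intervals of the 2 OVA libraries did not overlap in any of the 6 gates at the limits used (the plot of gate shares by library). The neutrophil gate held 10205 of 17498 Vehicle-OVA cells, or 58.3% (57.6 to 59.1), and 2659 of 8817 Ribavirin-OVA cells, or 30.2% (29.2 to 31.1). The Ribavirin-OVA share was therefore 0.517 of the Vehicle-OVA share, whereas without OVA the neutrophil share was 28.0% with vehicle and 33.3% with ribavirin, a ratio of 1.19. The Ribavirin-OVA library thus lay near both libraries without OVA, and the Vehicle-OVA library stood above all the others.

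The other 5 gates held larger shares in the Ribavirin-OVA library. C1q gate cells, the macrophage-marked fraction, made up 6.09% (5.74 to 6.46) of the Vehicle-OVA and 12.9% (12.2 to 13.6) of the Ribavirin-OVA cells. Cd3 gate cells, marked by the T cell receptor's signalling chains, made up 6.15% (5.80 to 6.52) and 16.5% (15.8 to 17.3), a ratio of 2.69. NK gate cells made up 0.406% (0.317 to 0.512) and 1.30% (1.08 to 1.56), and Siglech gate cells, marked by a plasmacytoid dendritic cell receptor, 0.949% (0.810 to 1.10) and 2.21% (1.91 to 2.54). B cell gate shares were 1.62% (1.44 to 1.82) and 3.10% (2.74 to 3.48). Shares sum to a whole, so a lower neutrophil share by itself raises the rest. At a mitochondrial limit of 5% the log2 ratio of the Siglech share moved from 1.22 to 0.23 and that of the B cell share from 0.93 to 1.84, so neither size was stable to that limit.

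Among cells outside the neutrophil gate, the Ribavirin-OVA share was 1.27 times the Vehicle-OVA share for the C1q gate, 1.60 times for the Cd3 gate, 1.92 times for the NK gate, 1.14 times for the B cell gate and 1.39 times for the Siglech gate. Each of these was smaller than the ratio over all cells. When each cell was thinned to 1000 UMIs, so that depth could not carry cells into a gate, the neutrophil share was 48.1% and 26.3%, and the B cell ratio shrank from 1.91 to 1.16. Median depth in the B cell gate was 3835.5 UMIs in the Vehicle-OVA library and 12246 in the Ribavirin-OVA library. The part of depth in the other gates was measured only by this thinning.

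**Figure D1:**
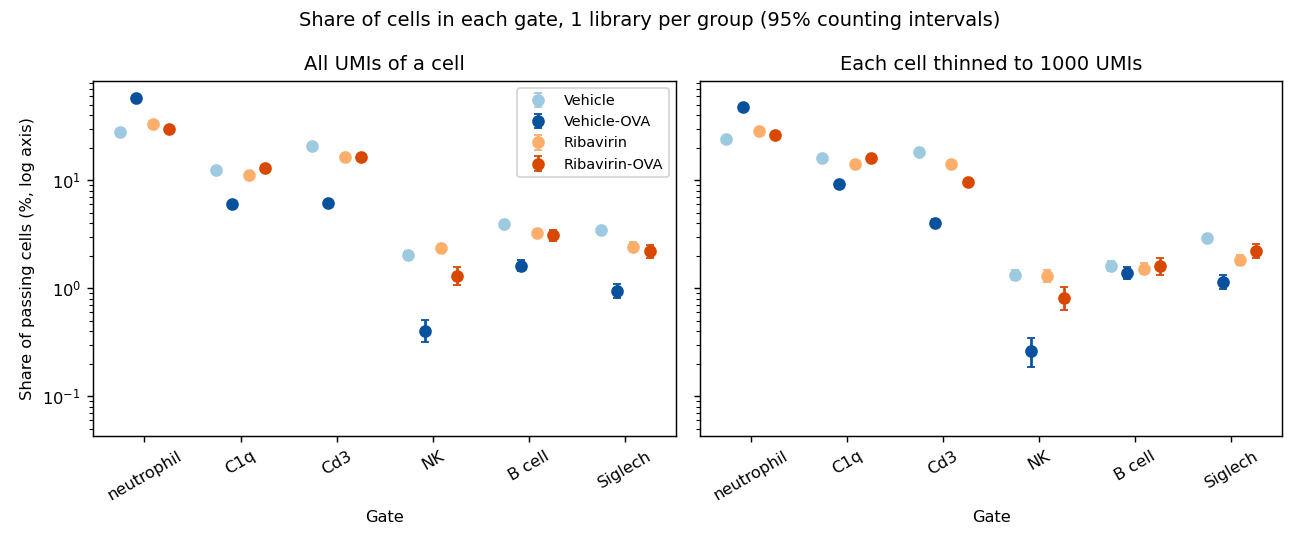
Share of passing cells in each gate (log axis, %) in the 4 libraries, from all UMIs of a cell on the left and after thinning each cell to 1000 UMIs on the right, with bars for the exact 95% counting intervals. The Vehicle-OVA point is highest in the neutrophil gate (58.3%) and lowest in every other gate on the left, and the B cell points lie closer together after thinning.

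Cells outside the 6 gates were 12.7% of the Vehicle-OVA and 14.6% of the Ribavirin-OVA library, and cells passing several gates 13.7% and 19.2%. Most of the latter carried neutrophil and C1q transcripts together, with 1486 such cells (62.0%) in the Vehicle-OVA library and 890 (52.6%) in the Ribavirin-OVA library. Median depth of the cells passing several gates was 9904.5 and 13655 UMIs, against 3120 and 3183 in the neutrophil gate. The doublet caller marked 172 of them in the Vehicle-OVA and 36 in the Ribavirin-OVA library, and the part of doublets was otherwise not tested.

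For levels, UMIs were summed over the cells of a gate in each library and scaled to CPM (a gene's UMIs over the gate's UMI total, in parts per 1e+06). Ratios were log2 of Ribavirin-OVA over Vehicle-OVA with 1 CPM added to both. A gene was measured where both libraries together held 50 UMIs of it or more, and a difference of at least 2-fold was counted. In sums over all cells, fewer cells of a type and less RNA per cell cannot be told apart.

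The neutrophil gate of the Ribavirin-OVA library had lower levels of a block of chemokine and interleukin-1 family genes. Csf3, which encodes the granulocyte growth factor G-CSF, stood at 296 CPM in the Vehicle-OVA library and 4.34 CPM in the Ribavirin-OVA library. That is 68.1-fold lower (52.8 to 89.6), from 12276 and 59 UMIs. Without OVA, Csf3 was at 1.84 CPM with vehicle and 10.1 CPM with ribavirin, so the Vehicle-OVA library was far above the other 3 and the ribavirin to vehicle order ran the other way.

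The neutrophil-attracting CXCR2 ligands moved in the same sense. Cxcl2 was at 22157 CPM in the Vehicle-OVA and 4974 CPM in the Ribavirin-OVA neutrophil gate, 4.45-fold lower (4.42 to 4.49), and it was found in 10125 of the 10205 Vehicle-OVA cells. Cxcl3 was at 3024 and 212 CPM, 14.3-fold lower (13.8 to 14.8), and Cxcl1 at 133 and 12.9 CPM, 10.3-fold lower. Cxcl5 was at 60.5 and 7.06 CPM, with 94.0% of its Vehicle-OVA UMIs in 10 cells. In the libraries without OVA the ribavirin library was the higher for each of these, with Cxcl3 at 148 CPM with vehicle and 851 CPM with ribavirin.

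The Cxcl1, Cxcl2 and Cxcl3 genes lie close together on mouse chromosome 5, and their promoters are shown because these 3 chemokines were lower together. Capitals mark matches to a form of the NF-kappaB site, GGG, then any 3 bases, then TTCC, searched on both strands, so that a match on the other strand reads GGAA, any 3 bases, CCC. Each window is the 250 bases before the RefSeq gene start on the plus strand of GRCm38.p6: chr5:90890995-90891244 for Cxcl1, chr5:90903649-90903898 for Cxcl2 and chr5:90785851-90786100 for Cxcl3.
Cxcl1: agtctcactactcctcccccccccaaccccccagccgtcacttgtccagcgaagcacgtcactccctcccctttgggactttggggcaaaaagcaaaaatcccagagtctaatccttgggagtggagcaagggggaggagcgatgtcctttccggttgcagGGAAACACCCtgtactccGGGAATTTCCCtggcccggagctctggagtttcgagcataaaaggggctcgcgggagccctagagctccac
Cxcl2: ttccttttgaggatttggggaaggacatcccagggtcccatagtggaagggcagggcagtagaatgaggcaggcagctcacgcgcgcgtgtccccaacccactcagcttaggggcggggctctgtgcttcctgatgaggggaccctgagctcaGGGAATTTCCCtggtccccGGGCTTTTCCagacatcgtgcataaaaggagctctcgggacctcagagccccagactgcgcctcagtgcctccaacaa
Cxcl3: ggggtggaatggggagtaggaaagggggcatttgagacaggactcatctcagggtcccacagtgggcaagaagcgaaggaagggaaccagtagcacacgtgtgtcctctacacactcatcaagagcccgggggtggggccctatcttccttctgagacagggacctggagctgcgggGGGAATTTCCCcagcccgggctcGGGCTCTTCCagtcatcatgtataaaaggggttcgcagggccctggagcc
Each window held 3 matches, 2 of which overlap on opposite strands in the run GGGAATTTCCC, and the match farthest from the gene start began 89 bases upstream in Cxcl1, 97 in Cxcl2 and 73 in Cxcl3. Of the 15 inflammatory list genes with a promoter entry, 6 held the motif (40%). They were these 3 with Csf1, Il6 and, in 1 of its windows, Il1rn. Of all genes with a promoter entry, 1434 of 27025 held it (5.31%). The list genes without a match were Ccl3, Ccl12, Il12b, Il1a, Il1b, Nlrp3, Ptgs2, Serpinb2 and Tnf. The part of the motif in the lower levels was not tested. Csf1, whose promoter held a match, was at 461 and 472 CPM in the neutrophil gate, a ratio of 1.02 (0.995 to 1.05). A match describes letters in the window and not a bound site.

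The interleukin-1 genes were also lower in the neutrophil gate. Il1a was at 1098 CPM in the Vehicle-OVA and 159 CPM in the Ribavirin-OVA library, 6.91-fold lower (6.62 to 7.22), and Il1rn, the IL-1 receptor antagonist, at 5040 and 1167 CPM. Nlrp3, the inflammasome sensor that leads to IL-1beta maturation, was at 1399 and 263 CPM. Il1b itself was at 14415 and 7251 CPM, 1.99-fold lower (1.97 to 2.00), just short of the 2-fold line. Without OVA, Il1b was at 13164 CPM with vehicle and 12483 CPM with ribavirin, so for this gene the Ribavirin-OVA library stood below all the others.

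The macrophage inflammatory proteins Ccl3 and Ccl4 were 4.39-fold and 4.35-fold lower, from 5156 to 1175 CPM and from 7185 to 1651 CPM. Irg1, which makes itaconate, was at 5577 and 967 CPM, and the prostaglandin synthase Ptgs2 at 3601 and 1324 CPM. Serpinb2, a plasminogen activator inhibitor, was at 157 and 9.41 CPM. Tnf was at 262 and 157 CPM, less than 2-fold apart, and Ccl2 was the higher in the Ribavirin-OVA library, at 22.1 and 31 CPM. Il6 was at 28.5 and 11.6 CPM, and Il10, an anti-inflammatory cytokine, at 24.6 and 5.44 CPM.

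Of the 22 inflammatory cytokine and chemokine genes measured in the neutrophil gate, 17 were at least 2-fold lower, none was 2-fold higher, and the median log2 ratio was −2.12. Over all 12371 genes measured there, 2.59% were 2-fold lower and 18.1% were 2-fold higher, with a median log2 ratio of 0.66. The list and the background therefore lay on opposite sides of 0, and relative to the gate's median gene the list's median was −2.77. Of all genes past 2-fold in the gate, 87.5% were higher in the Ribavirin-OVA library, and 23.7% once the ratios were centred on the median gene. Without OVA the list's median was 0.42, with 4.78% of genes 2-fold higher and 0.149% lower. The median of the list ran from −2.77 to −1.55 over 12 other settings. At least 50% of the UMIs in the higher library came from 10 cells for 3 of the 17 genes.

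Other genes that were lower in the neutrophil gate by the naming rule were Mmp3, Fam71f2, Mir155hg and Hilpda. Hilpda, a hypoxia-responsive lipid droplet gene, was at 635 and 82.2 CPM. Mir155hg, the host transcript of miR-155, was at 35.6 and 3.09 CPM, and Fam71f2 at 23.5 and 1.32 CPM. Mmp3, a matrix metalloproteinase, had 1914 UMIs in the Vehicle-OVA gate and 0 in the Ribavirin-OVA gate, and at least 50% of those UMIs were held by 10 cells. Of the 23 glycolysis and hypoxia genes, 6 were 2-fold lower and none higher, with a median of −0.59. Over all genes of the gate 2.59% were lower and 18.1% higher, with a median of 0.66. Among the lower genes were Ero1l (493 and 200 CPM), Pfkfb3 (269 and 113 CPM) and the glucose transporter Slc2a1 (337 and 165 CPM).

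**Figure D2:**
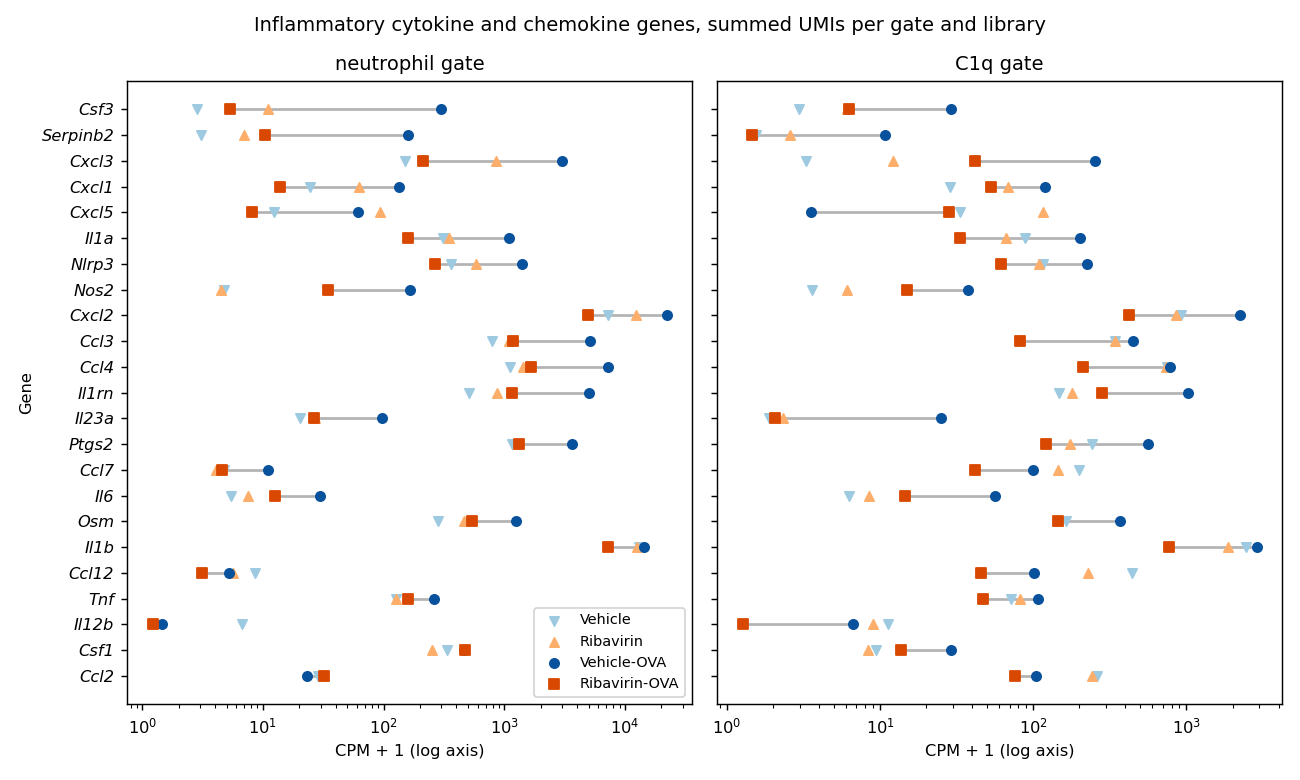
Levels of the inflammatory cytokine and chemokine genes (CPM plus 1, log axis) in the neutrophil gate on the left and the C1q gate on the right, 1 point per library, with a line joining the 2 OVA libraries. The Ribavirin-OVA squares lie left of the Vehicle-OVA circles for most genes, by 68.1-fold for Csf3 in the neutrophil gate. Many lie near the libraries without OVA, but for Il1b in the neutrophil gate the square lies left of all other points.

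Granule and maturation genes showed the opposite order in the neutrophil gate. Camp, the cathelicidin of secondary granules, was at 338 CPM in the Vehicle-OVA and 2422 CPM in the Ribavirin-OVA library, 7.16-fold higher (7.02 to 7.31), in 343 of 2659 cells. Ngp, neutrophilic granule protein, was at 941 and 4068 CPM, and Ltf, lactoferrin, at 1215 and 4252 CPM. Cebpe, the transcription factor of granule formation, was at 8.98 and 41.7 CPM. The ribavirin library was also the higher without OVA, with Camp at 586 CPM with vehicle and 1439 CPM with ribavirin.

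Of the 21 granule genes measured, 11 were 2-fold higher and none lower, beside 18.1% higher and 2.59% lower over all genes of the gate. The list's median of 1.02 lay closer to the gate's median of 0.66 than the inflammatory list did. The most abundant members did not follow: S100a8, a calprotectin subunit, was at 22620 and 20460 CPM, S100a9 at 31851 and 26316 CPM, and Lcn2 at 2564 and 2021 CPM. For 4 of the 11 genes, among them Mpo at 1.11 and 39.7 CPM, 10 cells held at least 50% of the UMIs. Ltf is also made by glands, and the C1q gate held 1672 and 4940 CPM of it, while Camp in that gate was at 4.76 and 10.2 CPM. The summed level of the list was nearly level, at 66142 CPM in the Vehicle-OVA and 68395 CPM in the Ribavirin-OVA library.

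Cells of the neutrophil gate were also counted by marker transcripts (the plot of marker-positive shares). Here a cell was positive with at least 2 UMIs summed over the genes named. Csf3-positive cells made up 11.8% (11.2 to 12.5) of the Vehicle-OVA neutrophil gate and 0.263% (0.106 to 0.542) of the Ribavirin-OVA gate. Median depths of the gate were 3120 and 3183 UMIs. In the C1q gate, at 6054.5 and 6590 UMIs, the shares were 2.35% and 0.702%, so the Ribavirin-OVA neutrophil share was at background. Siglecf is found on a long-lived subset of nasal tissue neutrophils. Siglecf-positive cells made up 4.61% (4.21 to 5.03) and 13.7% (12.4 to 15.1) of the neutrophil gate, and in no other gate of these libraries above 0.366%. The Vehicle and Ribavirin libraries stood at 21.4% and 15.4%, so here too the Ribavirin-OVA library was nearer to those without OVA. Eosinophils also carry Siglecf. Of 6 eosinophil markers, Epx, the eosinophil peroxidase gene, had 0 UMIs in both OVA libraries. The 6 together held 184 UMIs (4.43 CPM) in the Vehicle-OVA and 52 UMIs (3.82 CPM) in the Ribavirin-OVA neutrophil gate. The part of eosinophils in the Siglecf-positive cells was not tested.

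The level of Siglecf in the neutrophil gate was 55.1 CPM in the Vehicle-OVA and 116 CPM in the Ribavirin-OVA library, a 2.10-fold difference (1.97 to 2.24). Of the 11 tissue neutrophil genes, 3 were 2-fold higher (Siglecf, Ltc4s and Gpr171), 2 were lower, and the median was 0.07, beside 18.1% higher and a median of 0.66 over all genes of the gate. Ltc4s, leukotriene C4 synthase, was at 23 and 59.4 CPM. Cd274, which encodes PD-L1, was at 1010 and 277 CPM, and the adhesion molecule Icam1 at 192 and 90.1 CPM. The list was thus divided. Cells with at least 2 UMIs of Camp, Ltf or Ngp made up 9.0% and 25.6% of the neutrophil gate, but 8.82% and 34.6% of the C1q gate. The unthinned Ribavirin-OVA share was therefore below that of the C1q gate, where median depth was 6590 UMIs against 3183 and Ltf was also found. The part of background in it was not tested. Thinned to 1000 UMIs, the shares were 2.86% and 11.6%, against 1.49% and 8.63% in the C1q gate.

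**Figure D3:**
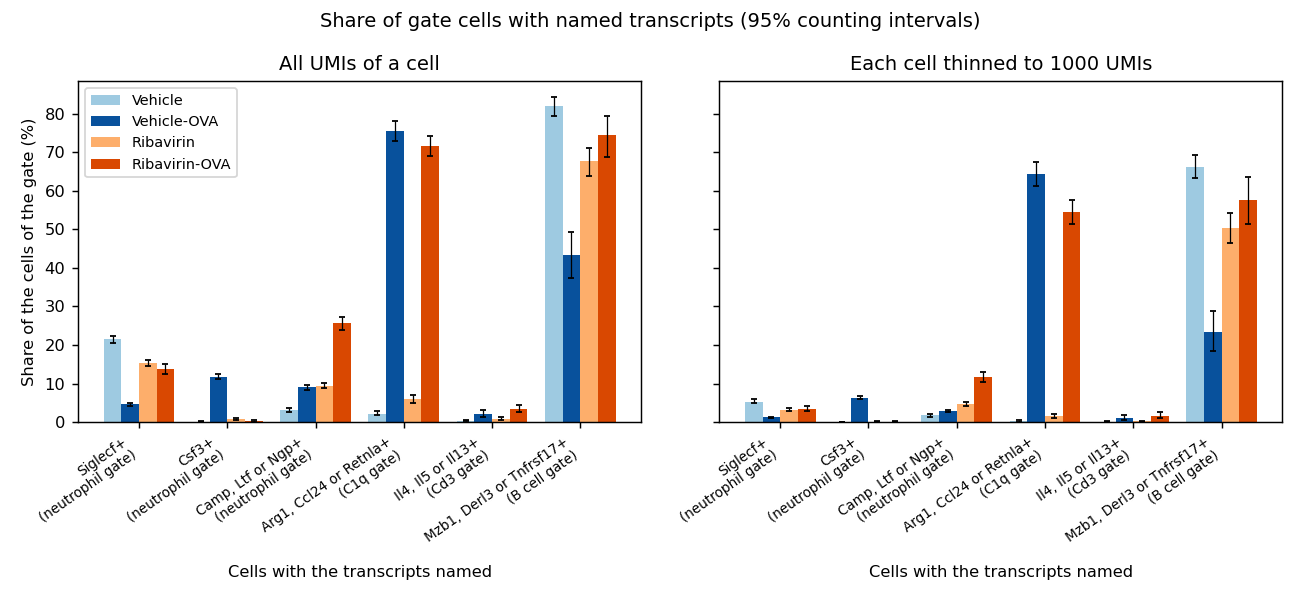
Share of a gate's cells (%) holding the transcripts named under each group of bars in the 4 libraries, from all UMIs on the left and after thinning each cell to 1000 UMIs on the right, with exact 95% counting intervals. A cell counts with at least 2 UMIs summed over the genes named, or 1 for Il4, Il5 or Il13. Csf3-positive cells fill 11.8% of the Vehicle-OVA neutrophil gate and 0.263% of the Ribavirin-OVA gate, and Siglecf-positive cells 4.61% and 13.7%.

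Cell cycle genes of the neutrophil gate were at least 2-fold higher in the Ribavirin-OVA library for 20 of 24 members, with a median of 1.33. Over all genes of the gate 18.1% were 2-fold higher, with a median of 0.66. Top2a, a DNA topoisomerase of dividing cells, was at 10.5 and 51 CPM and Mki67 at 24.5 and 55.5 CPM. For 14 of the 20 genes, 10 cells held at least 50% of the UMIs. The same gate had higher summed markers of other cells in the Ribavirin-OVA library, with macrophage markers at 912 and 1132 CPM, monocyte markers at 428 and 689 CPM, plasma cell markers at 174 and 366 CPM and epithelial markers at 265 and 532 CPM. The part of those cells in the genes that were higher was not tested.

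Cells over 10000 UMIs held 21.7% of the neutrophil gate's UMIs in the Vehicle-OVA library and 40.9% in the Ribavirin-OVA library. Without them, an alternative added after the data were seen, the log2 ratio was −6.12 for Csf3, −1.73 for Cxcl2, −3.40 for Cxcl3, 4.00 for Camp and 3.40 for Ngp in the neutrophil gate, while Mki67 turned from 1.15 to −0.20. The median of the inflammatory list was then −1.55 and that of the granule list 1.01.

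C1q gate cells also had lower levels of inflammatory genes in the Ribavirin-OVA library. Il1b was at 2878 CPM in the Vehicle-OVA and 774 CPM in the Ribavirin-OVA gate, 3.72-fold lower (3.63 to 3.80). Cxcl2 was at 2241 and 422 CPM, Ccl3 at 447 and 81.4 CPM, and Il1rn at 1023 and 281 CPM. Ptgs2 was at 561 and 120 CPM, Il6 at 55 and 13.5 CPM and Tnf at 107 and 45.7 CPM. The summed neutrophil markers in this gate were lower as well, at 1340 and 386 CPM, and the part of neutrophil RNA in these genes was not tested.

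Of the 23 inflammatory genes measured in the C1q gate, 21 were 2-fold lower and 1 higher, with a median of −1.89. Of all 11809 genes there, 2.83% were lower and 13.8% higher, with a median of −0.11. Without OVA the list's median was −0.03, and 0.150% of genes were 2-fold lower and 7.87% higher. The 1 higher gene was Cxcl5, at 2.56 and 27 CPM, with 88.1% of its UMIs in 10 cells. Over 12 other settings, leaving out cells over 10000 UMIs included, the median stayed between −1.89 and −1.41. Il23a, a subunit of IL-23, was at 24.1 and 1.07 CPM, with 81.8% of its UMIs in 10 Vehicle-OVA cells. The formyl peptide receptor Fpr2, at 116 and 16 CPM, and Inhba, an activin subunit, at 78.5 and 14.5 CPM, were named by the same rule, as were Il1a (201 and 32.2 CPM), Ptgs2, Dmbt1, Col4a1 and Col4a2. The direction of the last 3 turned with gates of at least 3 UMIs, to log2 ratios of 0.65 for Dmbt1, 0.14 for Col4a1 and 0.054 for Col4a2. The 8 genes named as higher in this gate, led by Obp1a, were gland transcripts held by few cells, and without cells over 10000 UMIs 2.00% of the gate's genes were higher in place of 13.8%.

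Genes that macrophages express in response to IL-4 were split. Arg1, arginase 1, was at 3707 CPM in the Vehicle-OVA and 1671 CPM in the Ribavirin-OVA C1q gate, against 8.88 and 42.5 CPM in the Vehicle and Ribavirin libraries. Ccl24, an eosinophil-attracting chemokine, was at 3120 and 1158 CPM. Retnla was the higher in the Ribavirin-OVA gate, at 113 and 346 CPM, and so was the lipoxygenase Alox15, at 23.7 and 128 CPM. Of 21 measured genes 4 were higher and 3 lower, with a median of −0.12, beside 13.8% higher, 2.83% lower and a median of −0.11 over the gate's genes. For 3 of the 4 higher genes 10 cells held at least 50% of the UMIs. The mannose receptor Mrc1 (1108 and 684 CPM) and Chil3 (764 and 890 CPM) stayed within 2-fold. Without cells over 10000 UMIs the log2 ratios of Arg1 and Ccl24 moved to −0.36 and −0.55, inside 2-fold. Cells with at least 2 UMIs of Arg1, Ccl24 or Retnla made up 75.6% and 71.6% of the C1q gate, against 5.39% and 6.39% of the neutrophil gate.

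Genes of apoptotic cell uptake gave 2 higher and 3 lower of 24 in the C1q gate, with a median of −0.48. Of all genes of the gate 13.8% were higher and 2.83% lower, with a median of −0.11. Lrp1, an uptake receptor, was at 254 and 135 CPM, 1.87-fold lower (1.76 to 1.99), and the receptor kinase Mertk at 103 and 68.1 CPM. The 3 lower genes were Nr1h3, which encodes the lipid sensor LXR alpha (96.6 and 40 CPM), Cd300lf (186 and 81.3 CPM) and Havcr2 (90.7 and 42.9 CPM). The 2 higher genes were Tyro3 (8.90 and 43.1 CPM) and the bridging protein Mfge8 (29.3 and 65.7 CPM). Cells over 10000 UMIs held 63.1% and 80.9% of this gate's UMIs, and without them the log2 ratios of Nr1h3, Cd300lf and Havcr2 were −0.19, −0.48 and −0.51.

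G3bp1, a core protein of stress granules, was at 145 CPM in the Vehicle-OVA and 109 CPM in the Ribavirin-OVA C1q gate, a log2 ratio of −0.41, and none of the 17 stress granule genes differed by 2-fold there (median −0.21). Over all genes of the C1q gate 13.8% were higher and 2.83% lower, with a median of −0.11. In the neutrophil gate only Usp10 was past 2-fold, and the list's median was 0.63. Over all genes of that gate 18.1% were higher and 2.59% lower, with a median of 0.66. Of 38 interferon-stimulated genes in the C1q gate, 7 were 2-fold lower and none higher, beside 2.83% lower and 13.8% higher over the gate's genes. The list's median of −0.68 ran to −0.12 without cells over 10000 UMIs. Isg15 was at 232 and 90.1 CPM and Ifi205 at 116 and 27.8 CPM, while the interferon-gamma-induced Cxcl9 was at 92.3 and 104 CPM.

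The Cd3 gate differed least among the larger gates. Of 10057 genes, 1.91% were 2-fold higher and 1.08% lower, with a median of 0.03, against 2.02% and 0.104% without OVA. Of 31 T cell and NK effector genes, 1 was higher and 3 were lower, with a median of −0.07. Gzma, a granzyme, was at 258 and 91.9 CPM, 2.81-fold lower (2.57 to 3.07), Gzmb at 196 and 73.9 CPM and the epithelial-acting cytokine Il22 at 38.2 and 16.9 CPM. The chemokine Xcl1, at 3.91 and 15 CPM, was the higher member. Gzma was also lower with ribavirin in the libraries without OVA, at 179 and 94.2 CPM.

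Of the helper T cell genes given next, all but Il5 lay within 2-fold in the Cd3 gate. Il17a was at 609 and 468 CPM, Ifng at 172 and 187 CPM, the regulatory T cell factor Foxp3 at 46.4 and 61.7 CPM and the type 2 factor Gata3 at 218 and 284 CPM. Il4 was at 12.3 and 13.5 CPM and Il13 at 20.1 and 21.2 CPM, both with ratio intervals that include 1. Il5 was at 2.24 and 9.74 CPM, from 12 and 83 UMIs. Cells with Cd4 made up 46.0% and 45.7% of the gate, cells with Cd8 transcripts 24.7% and 26.5%, and cells with Foxp3 6.50% and 7.06%.

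The 14 inflammatory genes measured in the Cd3 gate had a median of −2.18, with 12 at least 2-fold lower and 1, Cxcl5, higher. Of all genes of the gate 1.08% were lower and 1.91% higher. Cxcl2, a myeloid chemokine, was at 686 and 70.9 CPM there, 9.68-fold lower, beside 10.5-fold lower over all cells. The summed neutrophil markers in this gate were at 1205 and 314 CPM. The mast cell proteases Mcpt1 (2.24 and 224 CPM) and Mcpt2 (2.42 and 158 CPM) were higher in the Ribavirin-OVA gate, with at least 50% of their UMIs in 10 cells. The other genes named as higher were the gland or olfactory epithelium transcripts Bpifb9b, Bpifb9a, Bpifb5, Cyp2g1, Odam and Sec14l3, and those named as lower, besides Gzma and Gzmb, were Dnase1, Obp2a, BC051076, Mup4, Lcn11 and Tff1, with 97.3% of the Vehicle-OVA gate's gland UMIs in 1 cell. Without cells of 5% or more gland UMIs, 5 of the 8 lower genes turned, with log2 ratios of 1.20 for Dnase1, 3.92 for Obp2a, 3.66 for BC051076, 4.84 for Mup4 and 3.59 for Lcn11, and only Gzma, Gzmb and Tff1 stayed 2-fold lower. The part of free RNA and of mast cells in these genes was not tested.

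In the NK gate, with 71 and 115 cells, cytotoxic genes lay close together. Gzma was at 6989 CPM in the Vehicle-OVA and 8436 CPM in the Ribavirin-OVA library, Gzmb at 836 and 811 CPM and perforin, Prf1, at 187 and 214 CPM. Of 14 effector genes 1 was 2-fold higher, Xcl1 at 66.8 and 143 CPM, and none was lower. Of all 4092 genes, 1.22% were higher and 2.1% lower. All 4 measured MHC class II genes were lower, H2-Ab1 at 650 and 59.7 CPM and Cd74 at 995 and 117 CPM, with at least 50% of their UMIs in 10 cells of the Vehicle-OVA gate. Without cells over 10000 UMIs these turned, H2-Ab1 to 0.84 and Cd74 to 0.96. The genes named by the rule as higher were Mcm3, Tmem71, Panx1, Mcm2 and Mki67, and as lower Ifitm3 and the class II genes.

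In the B cell gate, the Ribavirin-OVA library held more plasma cell transcripts and fewer of follicular B cells. Cr2, the complement receptor of follicular and marginal zone B cells, was at 193 and 13.7 CPM, 14.1-fold lower (10.5 to 19.3), Fcer2a at 147 and 31.7 CPM and Bcl6, the germinal centre factor, at 50.9 and 12.6 CPM. Jchain, which joins secreted antibodies, was at 22147 and 32245 CPM, Derl3 at 162 and 344 CPM and Sdc1 at 176 and 358 CPM. Sorl1 (379 and 60.5 CPM) and Hs3st1 (60.2 and 8.21 CPM) were also named as lower, and the genes named as higher, Igfbp5, Inmt, Igfbp4, Col1a2 and Ctgf, are stromal transcripts that 10 cells held.

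Ciita, the master regulator of MHC class II, was at 102 and 15.6 CPM, H2-Ob at 251 and 59.7 CPM and H2-Aa at 1924 and 673 CPM in the B cell gate. Of 12 class II genes 9 were lower and none higher, with a median of −1.36, while 4.86% of the 8218 genes in the gate were lower and 2.68% higher. Of 19 B cell activation and plasma genes, 7 were lower and 2 higher, with a median of −0.28. Cells with at least 2 UMIs of Mzb1, Derl3 or Tnfrsf17 made up 43.3% and 74.4% of the gate. When thinned they made up 23.4% and 57.5%, against 0.0503% and 0.276% of the thinned neutrophil gate. The gate therefore held different mixtures of B cells and plasma cells in the 2 libraries, and levels within one B cell stage cannot be told apart from that mixture.

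The Siglech gate, with 166 and 195 cells, had the smallest share of genes past 2-fold. Of 7125 genes, 0.477% were higher and 1.12% lower. The plasmacytoid dendritic cell factors Tcf4 (2881 and 3013 CPM) and Irf8 (3758 and 3811 CPM) and the RNA sensor Tlr7 (142 and 152 CPM) were close, and of 10 function genes 1 was lower. That gene was Il12a, a subunit of IL-12, at 80.1 and 24.8 CPM, 3.22-fold lower (2.31 to 4.54). MHC class II genes in this gate were the higher in the Ribavirin-OVA library for 9 of 9, without reaching 2-fold, with a median of 0.33. Over all genes of the gate the median was −0.04. The class II list thus had opposite signs in the B cell and Siglech gates, but the B cell values cannot be told apart from that gate's plasma cell mixture.

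The inflammatory list was low in the 3 small gates too. In the NK gate 4 of 6 measured genes were 2-fold lower (median −2.14), in the B cell gate 11 of 11 (median −3.31) and in the Siglech gate 9 of 10 (median −2.53), with none higher. Of all genes of these gates, 2.1%, 4.86% and 1.12% were lower. Summed neutrophil markers in these gates were at 899 and 248 CPM, 1209 and 367 CPM, and 1097 and 240 CPM. Neutrophil transcripts in cells of other lineages were thus lower in the Ribavirin-OVA library alongside the inflammatory list, and their part in it was not tested.

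Over all cells, Csf3 was at 160 CPM in the Vehicle-OVA and 4.05 CPM in the Ribavirin-OVA library, 39.5-fold lower (35.4 to 44.0), and Cxcl3 at 1549 and 50.4 CPM. Of the 23 inflammatory genes 18 were 2-fold lower and none higher, with a median of −2.66, against 3.08% of 15335 genes lower and 9.76% higher and a median of 0.38. Of the genes past 2-fold, 76.0% were higher, and 42.2% once centred on the median gene. Without OVA 0.0626% were lower and 5.27% higher. The summed list took 3.62% of Vehicle-OVA and 0.491% of Ribavirin-OVA UMIs. The neutrophil gate held 43.3% and 16.1% of all UMIs, so the all-cell values carry the smaller share of those cells as well as their lower levels. Csf3 transcripts came to 80.1% from the neutrophil gate in the Vehicle-OVA library and to 17.2% in the Ribavirin-OVA library.

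The other genes lower over all cells by the naming rule were Mmp3, Serpinb2, Irg1, Il1a, Prok2, Tnfaip6, Cxcl2, Ccl3, the formyl peptide receptor Fpr1 and Nlrp3. Prok2, a neutrophil-made chemokine-like peptide, was at 64.2 and 4.42 CPM and Fpr1 at 134 and 12.7 CPM. Without OVA the ribavirin library was the higher for each of these genes, by 1.14-fold for Il1a and 1.79-fold for Cxcl2.

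Genes with the largest positive ratios over all cells were mostly nasal gland transcripts. Obp1a, an odorant-binding protein, was at 437 CPM in the Vehicle-OVA and 9372 CPM in the Ribavirin-OVA library, against 4283 and 17824 CPM in the Vehicle and Ribavirin libraries. BC051076, Scgb1b27, Obp2b, Mup4, Scgb2b27, Lcn11, Bpifb9a, Pip and Obp1b were likewise higher with ribavirin, both with and without OVA, and 10 cells held at least 50% of the UMIs of each. The Obp, Mup and Lcn genes form families of near-identical copies, so counts of single members are uncertain.

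A cell with at least 5% of its UMIs from 10 gland genes was counted as gland-rich. There were 44 in the Ribavirin-OVA and 13 in the Vehicle-OVA library, and in the Ribavirin-OVA C1q gate 13 of 1139 cells held 99% of the gland UMIs (the plot of gland UMIs). Outside these cells, gland genes took 0.109% of Ribavirin-OVA UMIs and 0.00631% of Vehicle-OVA UMIs, against 0.270% and 0.0218% in the Ribavirin and Vehicle libraries. Cells with at least 1 gland UMI made up 98.5% of the Ribavirin-OVA and 22.8% of the Vehicle-OVA library. Both ribavirin libraries were above both vehicle libraries, and ribavirin cannot be told apart from how those libraries were made.

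**Figure D4:**
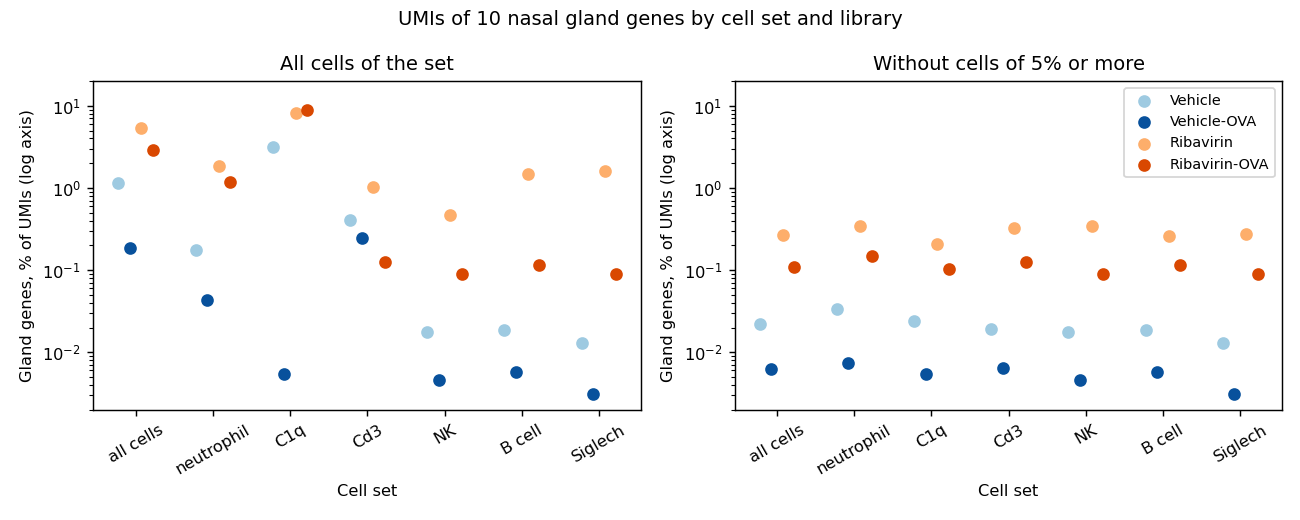
Share of UMIs from 10 nasal gland genes (%, log axis) in all cells and in each gate, 1 point per library, with every cell on the left and without cells of 5% or more gland UMIs on the right. On the right the 2 ribavirin libraries lie above the 2 vehicle libraries in every set, at 0.109% for Ribavirin-OVA and 0.00631% for Vehicle-OVA over all cells.

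Chil4, a chitinase-like protein made by mucosal epithelium in type 2 inflammation, was less concentrated, with 20.7% of its Ribavirin-OVA UMIs in 10 cells against 81.9% for Obp1a. It was at 257 CPM in the Vehicle-OVA and 4391 CPM in the Ribavirin-OVA library, 17.1-fold higher, in 5164 of 8817 Ribavirin-OVA cells. Obp1a was found in 7571 of them, so the number of cells with Chil4 does not set it apart from free RNA. Without OVA it was at 9.79 CPM with vehicle and 190 CPM with ribavirin. Summed epithelial markers were at 304 and 761 CPM over all cells of the OVA libraries, and 1378 CPM in the Ribavirin-OVA C1q gate against 308 CPM in the Vehicle-OVA gate. The part of epithelial RNA in Chil4 was not tested. Fcgbp, a mucus-associated protein, was at 2.14 and 53.9 CPM.

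Type 2 cytokine genes were at least 2-fold higher in the Ribavirin-OVA library over all cells for 4 of 6 measured, with a median of 1.29. Of all genes 9.76% were 2-fold higher, with a median of 0.38. Il13 was at 4.93 and 23.8 CPM, 4.83-fold higher (4.37 to 5.35), Il5 at 1.02 and 7.38 CPM and Il4 at 5.61 and 13.8 CPM. They were found in few Ribavirin-OVA cells, Il13 in 204, Il5 in 90 and Il4 in 146, and 10 cells held 67.6%, 77.3% and 77.3% of their UMIs. Calca, a neuropeptide of group 2 innate lymphoid cells, was at 23.3 and 63.3 CPM. Without cells over 10000 UMIs the log2 ratio was 1.51 for Il13, 0.80 for Il5, −0.35 for Il4 and 2.05 for Calca. The median of all genes was then 0.66, with 15.7% of genes 2-fold higher. Il5 thus lay near that median, Il13 and Calca lay above it, and Il4 turned in sign. Cells with Il4, Il5 or Il13 made up 2.14% and 3.43% of the Cd3 gate, below the 5.86% of the Ribavirin-OVA B cell gate. Median depth in the Ribavirin-OVA library was 12246 UMIs in the B cell gate and 5162 in the Cd3 gate. The NK gate of that library, at 5281 UMIs and with 115 cells, held 0 UMIs of each of these genes. The gates thus gave different background levels, and the part of background in the Cd3 shares was not tested.

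Lists bearing on ribavirin's known action had medians near that of all genes, which was 0.38 over all cells (the plot of list medians). Over all cells 9.76% of all genes were 2-fold higher and 3.08% lower. None of the 16 genes of ribavirin uptake and GTP synthesis was past 2-fold over all cells (median 0.54). In the neutrophil gate 3 were higher (median 0.70), beside 18.1% higher and a median of 0.66 for all genes. Over all cells, of 16 p53 targets 1 was higher and 3 were lower (median 0.33). Of 17 integrated stress response genes 3 were higher and 3 lower (median 0.22). Both lists thus had a larger share of lower members than all genes did. Of the integrated stress response genes, the cystine transporter Slc7a11 was at 988 and 155 CPM and the stress-induced regulator Nupr1 at 93.6 and 255 CPM.

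Among the remaining lists over all cells, interferon-stimulated genes had 12 of 38 lower and none higher (median −0.76), with Rsad2, the antiviral radical enzyme, at 490 and 101 CPM. In the neutrophil gate Rsad2 was at 878 and 329 CPM, but the list's median there was −0.18, with 2 higher and 1 lower. Of all genes of that gate 18.1% were higher and 2.59% lower, with a median of 0.66. Over all cells, immediate early and dissociation genes had 9 of 26 lower and 1 higher (median −0.57), with Nr4a3 at 313 and 67.6 CPM. Over all cells 3.08% of all genes were lower and 9.76% higher. Ribosomal protein genes (82, median 0.47), cholesterol genes (18, median 0.45) and mitochondrially encoded genes (13, median 0.56) had no member past 2-fold, and leukotriene and prostaglandin genes had 1 of 13 on each side (median 0.07).

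**Figure D5:**
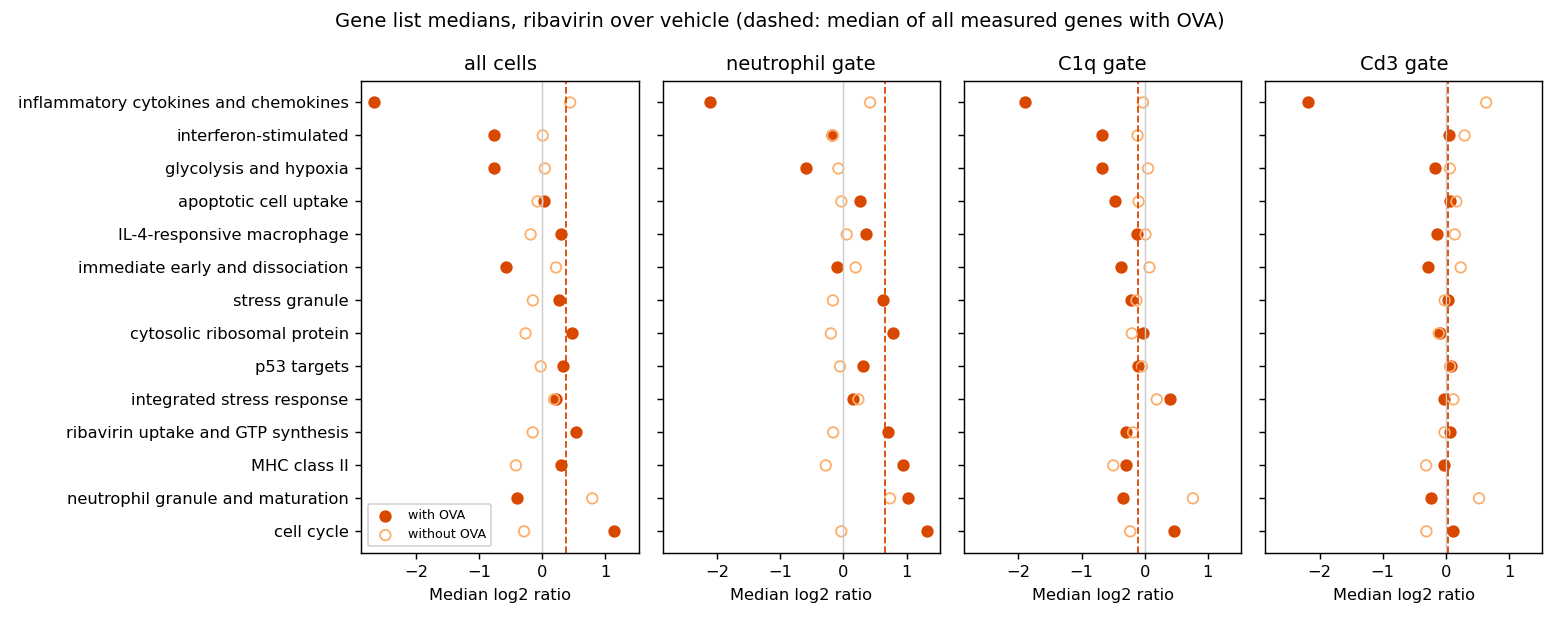
Median log2 ratio of ribavirin over vehicle for 14 gene lists in all cells and the 3 largest gates, with filled points for the OVA libraries, open points for the libraries without OVA and a dashed line at the median of all genes measured with OVA. The inflammatory list stands lowest in each panel (−2.66, −2.12, −1.89 and −2.18), while its open points lie near or above 0.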

How the data were processed

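CD45+ cells of nasal mucosa were captured on the 10x Chromium platform, after enzymatic digestion. The labels name magnetic beads and the series' design text a cell sorter as the means of selection. Per the submitters' processing notes, Cell Ranger 5.0.0 and mm10 were used. The gene annotation is not given in the sources used here. The deposited matrices hold raw UMI counts per gene and barcode, made by the authors, over 27998 listed genes, of which 121 share a symbol with another.

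UMI counts were summed by gate and library and scaled to CPM. Ratios used a pseudocount of 1 CPM, genes with at least 50 UMIs over both OVA libraries and a 2-fold line. With 1 library per group no test was run. Exact 95% intervals (Poisson, Clopper-Pearson shares, conditional binomial ratios) cover counting error only. To set depth aside, each cell was thinned to 1000 UMIs, leaving out 970 Vehicle-OVA and 510 Ribavirin-OVA cells. Scrublet, run in scanpy, counted doublets, and none were removed.

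By-size genes were the 12 largest ratios per direction over all cells, 8 in the neutrophil, C1q and Cd3 gates and 5 in the others, each 2-fold or more, at 20 CPM or more in the higher library and at 0.25 or more of that library's all-cell CPM. Gate genes, predicted genes, mitochondrial genes and shared symbols were not eligible. Members of the 22 gene lists, and G3bp1, Lrp1, Il4, Il5, Il13, Il6 and Il10, could be named at any value. A gene that met the rule in the B cell gate is not reported here. The members and lists were chosen with earlier results of these data known. Code was tested on simulated data. Promoters came from RefSeq (GRCm38.p6). Python 3.11.15, numpy 2.4.6, scipy 1.17.1, pandas 2.3.3, scanpy 1.11.5 and matplotlib 3.10.9 were used.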

Additional observations from a re-analysis of the deposited data

Results flagged for a closer look

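Of the cell shares, 5 had a ribavirin to vehicle ratio on opposite sides of 1 with and without OVA, a difference that was not tested because each group has 1 library. The ratio was 0.517 with OVA and 1.19 without for the neutrophil gate, 2.12 and 0.897 for the C1q gate, 2.69 and 0.799 for the Cd3 gate, 1.91 and 0.812 for the B cell gate, and 2.33 and 0.709 for the Siglech gate.

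The median log2 ratio of the inflammatory cytokine and chemokine list was below 0 with OVA and above 0 without OVA in several sets, and the difference was not tested. It was −2.66 and 0.44 over all cells, −2.12 and 0.42 in the neutrophil gate, −2.18 and 0.64 in the Cd3 gate, −2.14 and 0.52 in the NK gate, and −3.31 and 0.48 in the B cell gate. The granule and maturation list of the Siglech gate was at −1.08 and 0.58.

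Single genes with opposite log2 ratios in the 2 pairs, likewise not tested, were Csf3 (−4.99 with OVA and 1.60 without), Cxcl3 (−4.92 and 2.57) and Tnfaip6 (−3.47 and 1.07) over all cells. In the neutrophil gate they were Csf3 (−5.80 and 1.97), Serpinb2 (−3.93 and 1.18), Cxcl3 (−3.83 and 2.51) and Cxcl1 (−3.27 and 1.36). In the C1q gate Dmbt1 was at −4.17 and 3.43 and Col4a1 at −2.36 and 1.35, but with gates of at least 3 UMIs the OVA values were 0.65 and 0.14, no longer opposite. In the Cd3 gate the gland gene Obp2a was at −3.13 and 2.37, and at 3.92 and 5.06 without gland-rich cells, of which the Vehicle-OVA gate held 1.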

How the results depend on the processing

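Each group has 1 library, so leaving 1 out was not possible, and depth limits the small gates, where a handful of UMIs set a 2-fold ratio. No paired analysis was possible because the groups hold 1 library each and share no replicate numbers that pair samples. The cause of each shift below was not tested. Leaving out gland-rich cells, leaving out cells over 10000 UMIs and gates of at least 5 UMIs were chosen after seeing the data.

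For gate shares 39 of 48 recalculations stayed close. As log2 ratios, the neutrophil share moved from −0.95 to −0.77 at a mitochondrial limit of 5%, −0.82 with gates of at least 5 UMIs and −0.87 thinned, and the C1q share to 0.82 and 0.81 under the last 2 of these. At the 5% limit the Cd3 share was 1.55, the B cell share 1.84 and the Siglech share 0.23, and the thinned B cell share was 0.18. The thinned values here come from a random draw separate from that behind the shares in the results.

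The percentage of genes at least 2-fold higher over all cells was 15.7 without cells over 10000 UMIs, 19.5 thinned, 3.99 centred on the median gene, 15.9 by mean single-cell CPM and 2.85 with a pseudocount of 5 CPM, and the lower percentage was 5.47 when centred. In the neutrophil gate the higher percentage was 11.1 with gates of at least 5 UMIs, 28.5 without cells over 10000 UMIs, 2.55 centred and 4.84 with the larger pseudocount, and the lower one 8.18 centred and 1.72 with genes of 1 UMI or more. The neutrophil inflammatory median was −2.77 centred.

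In the C1q gate the higher percentage was 8.44 at the 5% limit, 7.48 with gates of at least 5 UMIs, 2.00 without cells over 10000 UMIs, 2.28 thinned, 7.49 with the larger pseudocount and 8.34 with genes of 200 UMIs or more. The lower percentage was 1.71 with gates of at least 3 UMIs, 1.64 without gland-rich cells, 1.41 with gates of at least 5 UMIs, 1.34 without cells over 10000 UMIs, 1.77 thinned, 1.80 without the most abundant genes and 1.35 by mean single-cell CPM. In the Cd3 gate the higher percentage was 0.824 at the 5% limit, 0.892 without cells over 10000 UMIs, 0.729 thinned, 1.20 with the larger pseudocount, 0.641 with genes of 200 UMIs or more and 3.55 with 1 or more, and the lower one 0.716 with the larger pseudocount.

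In the NK gate the higher percentage was 1.99 with gates of at least 5 UMIs, 0.312 with genes of 200 UMIs or more and 16.3 with 1 or more, and the lower one 1.33, 0.935 and 13.1 under these, 0.953 without cells over 10000 UMIs and 0.923 thinned. In the B cell gate the higher percentage was 1.61 with gates of at least 3 UMIs, 6.33 thinned, 7.06 by mean single-cell CPM, 1.57 with the larger pseudocount, 1.59 with genes of 200 UMIs or more and 6.49 with 1 or more, and the lower one 3.24 at the 5% limit and 2.23 without cells over 10000 UMIs. In the Siglech gate the higher percentage was 0.814 by mean single-cell CPM, 0.309 with the larger pseudocount, 0.220 with genes of 200 UMIs or more and 4.13 with 1 or more, and the lower one 1.83 with gates of at least 5 UMIs, 0.565 thinned, 0.378 with genes of 200 UMIs or more and 4.22 with 1 or more.

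Of the recalculated log2 ratios of named genes, 26 turned sign. In the C1q gate Dmbt1 was at 0.65 with gates of at least 3 UMIs and 1.28 without cells over 10000 UMIs, and Col4a2 and Col4a1 were at 0.054 and 0.14 with gates of at least 3 UMIs. In the Cd3 gate, with gates of at least 3 UMIs, without gland-rich cells and without cells over 10000 UMIs in turn, Dnase1 was at 3.23, 1.20 and 1.19, Obp2a at 6.08, 3.92 and 4.11, BC051076 at 6.91, 3.66 and 3.70, Mup4 at 7.31, 4.84 and 4.85, and Lcn11 at 6.04, 3.59 and 3.64. Mup4 and Lcn11 were at 0.49 and 0.52 by mean single-cell CPM. In the NK gate without cells over 10000 UMIs, Mki67 was at −0.42, H2-Eb1 at 1.48, H2-Ab1 at 0.84, H2-Aa at 1.30 and Cd74 at 0.96.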

Other observations

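Among cells that passed none of the 6 gates, a second set of gates found cells with group 2 innate lymphoid markers, 40 (0.229% of all cells) in the Vehicle-OVA and 69 (0.783%) in the Ribavirin-OVA library. Conventional dendritic cells numbered 89 (0.509%) and 109 (1.24%), monocytes 177 (1.01%) and 117 (1.33%), plasma cells 24 (0.137%) and 39 (0.442%), and epithelial cells 54 (0.309%) and 182 (2.06%). The share of all cells was the higher in the Ribavirin-OVA library for each of these. Cells with Siglecf or Ltc4s transcripts, from the same second set, went the other way, at 13 (0.0743%) and 5 (0.0567%). A lower neutrophil share by itself raises such shares, and they were not recalculated without the neutrophil gate.

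In the Ribavirin-OVA library most type 2 cytokine transcripts lay in cells that passed several gates. Such cells held 59.4% of the Il13 UMIs in the Vehicle-OVA and 86.4% in the Ribavirin-OVA library, 54.1% and 81.3% of the Il5 UMIs, and 35.5% and 82.1% of the Il4 UMIs.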
